A study of Homo sapiens with 28 samples.

Results

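TG3_2, TG3_5 and TG3_6 are TWIST1-knockout lines of MDST8, a human colorectal cancer cell line of the mesenchymal consensus subtype, and were compared with each other to see how far knockout lines that carry the same guide label differ. They were chosen by the library names, which give each of them 3 RNA-seq libraries lettered A, B and C, and together they make 9 of the 18 MDST8 RNA-seq libraries and 9 of the 28 samples of the series. All 9 libraries share the parental line, the TWIST1 knockout and the way it was made, by electroporation of Cas9 annealed to guide RNAs followed by sorting of labelled single cells. The cells were grown in DMEM with fetal bovine serum, with no further treatment named. The study also holds 3 MDST8 WT libraries, 3 libraries each of the knockout lines TG1_1 and TG2_2, LoVo knockdown libraries and TWIST1 ChIP-seq. WT, TG1_1 and TG2_2 entered no test among TG3_2, TG3_5 and TG3_6, and their levels are given as background. The titles write TG3 as the clone and place the number 2, 5 or 6 before the replicate letter. The numbers are read here as 3 clones and TG3 as the label of their guide. The study's supplementary material names a knockout clone by the same pair of digits as TG3_6, but no source used here states the reading for TG3_2 and TG3_5 or says which guide sequence TG3 stands for. If the reading holds, each clone descends from 1 edited cell, so a clone and whatever else set that cell apart cannot be told apart. The labels do not say that the letters were separate cultures, and the p-values below then measure only the spread between these libraries, which may be technical.

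TWIST1 is a basic helix-loop-helix transcription factor that binds E-box motifs and is known for driving mesenchymal and migratory programmes in development and in carcinoma. Members of the ID family bind the common partners of such factors and block them from DNA. Clones grown from single cells carry forward the chromosomes and the silenced or active promoters of their founder cell, and single-cell clones of a tumour line can differ whether or not they were edited.

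The 9 libraries held between 17252883 and 22217009 assigned reads. Levels are given in CPM, read counts scaled to the library total after correction by trimmed mean of M values (TMM), and differences as log2 fold changes from a quasi-likelihood fit in edgeR, whose p-values were adjusted by Benjamini-Hochberg over the 13760 genes tested. In such bulk samples a lower level in every cell and fewer cells with the transcript cannot be told apart. A gene was called when its adjusted p-value was below 0.05 and its log2 fold change was above 0.58 in size. VIM, FN1, CDH2 and ZEB1, the mesenchymal markers, were detected in all 9 libraries, whereas 6 of 8 epithelial markers stayed under 1 RPM, the read count scaled to the library total alone, in every library and CDX2, an intestinal identity factor, was at 0 in all 9. All 13 leukocyte and all 8 endothelial markers were under 1 RPM, with summed levels of 0.763 to 1.98 RPM and 0.0991 to 0.914 RPM. The mitochondrial share of the reads was 2.80% to 4.02% in TG3_2, 3.89% to 4.37% in TG3_5 and 2.38% to 3.28% in TG3_6 (exact two-sided permutation p = 0.0429 over the 3 clones). The share of ribosomal protein genes was 2.35% to 2.41% in TG3_2, 2.55% to 2.59% in TG3_5 and 1.94% to 2.02% in TG3_6, with no overlap between clones (exact two-sided permutation p = 0.00357, the smallest that 9 libraries in 3 groups allow). The part of these shares in the gene results was not tested.

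TWIST1 (ENSG00000122691.13, minus strand, chr7:19020991-19117636 of hg38) was read at 51, 52.2 and 57.6 CPM in TG3_2, at 37.4, 43.7 and 40.6 CPM in TG3_5 and at 46.0, 44.7 and 43.7 CPM in TG3_6. The WT libraries held 44.7, 52.3 and 40.4 CPM. TG3_2 lay above the other clones without overlap, while TG3_5 and TG3_6 lay next to each other. The largest difference was a log2 fold change of -0.40 (standard error 0.06) between TG3_5 and TG3_2, with an adjusted p-value of 5.77e-06 in the 3-group test but short of the fold threshold, so TWIST1 was not called. Between TG3_6 and TG3_5 the difference was 0.14 (adjusted p = 0.0501, standard error 0.06). Small insertions or deletions need not remove a transcript, so these reads do not check the knockout. SPON2 (ENSG00000159674.12, minus strand, chr4:1166932-1208962), the secreted matrix protein the study followed downstream of TWIST1, was at 1.99, 2.38 and 1.88 CPM in TG3_2, at 2.59, 3.13 and 3.33 CPM in TG3_5 and at 3.73, 4.68 and 5.12 CPM in TG3_6. The 3 clones stood in this order without overlap, and all of them lay below the WT libraries, which held 6.19, 8.75 and 7.25 CPM. Lack of overlap was common among the genes tested, here and for the genes below. It held in 51% of them between TG3_5 and TG3_2, 52.9% between TG3_6 and TG3_2 and 61.1% between TG3_6 and TG3_5. SPON2 was called between TG3_6 and TG3_2, with a difference of 1.11 on the log2 scale (adjusted p = 3.8e-05, standard error 0.20), and not in the steps from TG3_2 to TG3_5 (0.54) or from TG3_5 to TG3_6 (0.57). For both genes the exact two-sided permutation test over the 9 libraries gave its smallest possible value, p = 0.00357, and any pair of clones with 3 libraries each cannot go below 0.10.

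The clones differed widely. The 3-group test called 2782 of 13760 genes, 20.2%, and 9266 genes (67.3%) had an adjusted p-value below 0.05 whatever the size of the difference. The common biological coefficient of variation within clones was 0.0400, so that small differences pass the test, and the fold threshold decided most of the calls. TG3_5 differed from TG3_2 in 1220 genes (8.87%), 583 of them higher in TG3_5 (4.24%) and 637 lower (4.63%). TG3_6 differed from TG3_2 in 1235 genes (8.98%), 699 higher in TG3_6 (5.08%) and 536 lower (3.9%). TG3_6 and TG3_5 were the most distant pair, with 2165 called genes (15.7%), 1126 higher in TG3_6 (8.18%) and 1039 lower (7.55%). Under limma on log2(count + 1), which carries no scaling for depth and moves the median of all genes by 0.20 between TG3_6 and TG3_5, the higher and lower calls split 361 to 983, 828 to 413 and 2049 to 564 in these contrasts. The largest log2 fold change exceeded 1 in 982 genes (7.14%), exceeded 2 in 202 and exceeded 3 in 79, and its median over the called genes was 0.84.

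**Figure D1:**
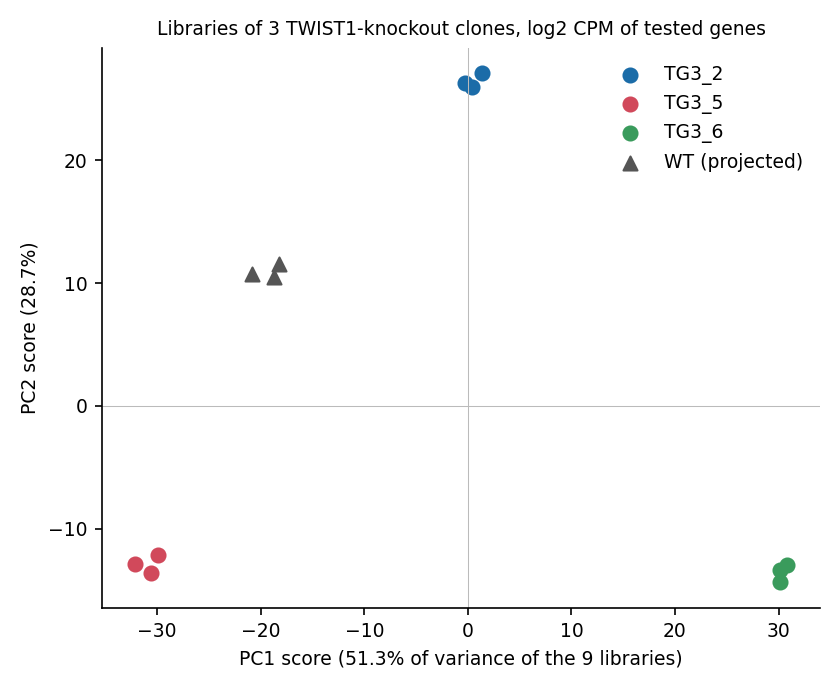
Principal components of log2 CPM (with a prior count of 2) over the tested genes, computed on the 9 TG3 libraries (1 point each), with the 3 WT libraries projected afterwards. The first component, 51.3% of the variance, runs from TG3_5 near -31 through TG3_2 near 0 to TG3_6 near 30, and the second, 28.7%, sets TG3_2 apart from the other clones.

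Libraries of a clone lay close together. The root-mean-square distance in log2 CPM between libraries was 0.218 to 0.243 within clones, against medians of 0.467 between TG3_2 and TG3_5, 0.464 between TG3_2 and TG3_6 and 0.551 between TG3_5 and TG3_6. In the plot of principal components TG3_2 took the middle of the first axis, and TG3_2 was also the middle clone in 1641 of the 2782 called genes (59.0%), against 563 (20.2%) for TG3_5 and 578 (20.8%) for TG3_6. Low genes were called more often, with 38.9% of the 2692 genes under 5 CPM called, 19.7% of the 6340 genes between 5 and 50 CPM and 10.3% of the 4728 genes from 50 CPM up. Of the long noncoding RNAs 388 of 1302 were called (29.8%), and of the protein-coding genes 2274 of 11960 (19%).

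Each gene was then placed by which clone stood apart, meaning that it was called in both contrasts with that clone, in the same direction, and not called between the other clones. TG3_5 stood apart in 569 genes (4.14%), 219 high (1.59%) and 350 low (2.54%), and TG3_6 in 567 genes (4.12%), 307 high (2.23%) and 260 low (1.89%). TG3_2 stood apart in 205 genes (1.49%), 74 high (0.538%) and 131 low (0.952%). In 196 genes (1.42%) all 3 contrasts were called, and the remaining 1245 called genes (9.05%) showed no such pattern. A missing call does not show that the other clones were alike.

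**Figure D2:**
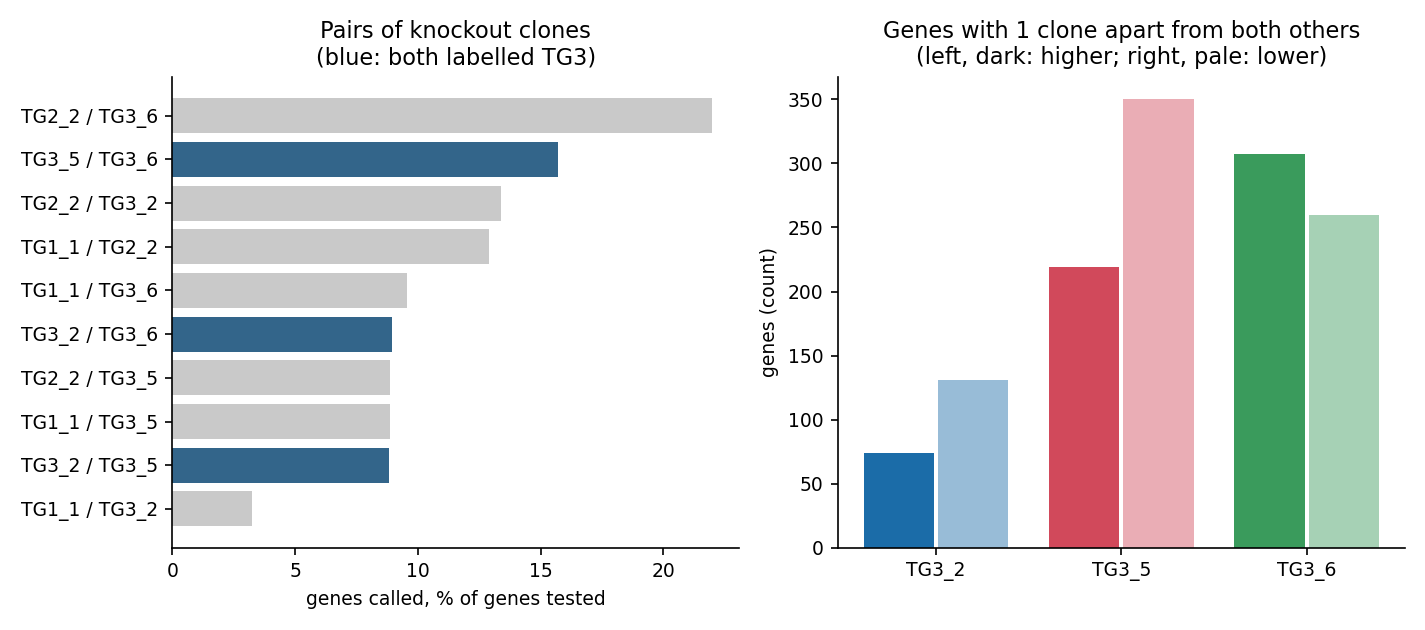
Left, genes called in each pair of MDST8 knockout clones as a percentage of the genes tested, in 1 fit of the 18 MDST8 libraries, with the pairs that share the TG3 label in blue, from 8.81% to 15.7%. Right, number of genes in which TG3_2, TG3_5 or TG3_6 stood apart, high or low; TG3_2 has 74 high and 131 low, fewer than the other clones in both directions.

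Sharing the TG3 label did not place the clones closest together. In a fit of all 18 MDST8 libraries over 13706 genes, the pairs TG3_2 and TG3_5, TG3_2 and TG3_6, and TG3_5 and TG3_6 had 1208 (8.81%), 1224 (8.93%) and 2147 (15.7%) called genes. Of the pairs across labels, TG1_1 and TG3_2 differed in 447 genes (3.26%), TG1_1 and TG3_5 in 1215 (8.86%) and TG1_1 and TG3_6 in 1308 (9.54%). TG2_2 differed from TG3_5 in 1217 genes (8.88%), from TG1_1 in 1768 (12.9%), from TG3_2 in 1833 (13.4%) and from TG3_6 in 3013 (22%). The lowest count of the 10 pairs thus joined TG3_2 to a clone of another label, and the median library distance of that pair, 0.358, was below every median between TG3 clones. Against WT the same fit called 2326 genes (17%) in TG3_2, 2535 (18.5%) in TG3_5 and 3704 (27%) in TG3_6. The pairs share clones, so no test of the difference between them was made.

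WT levels show on which side each clone departed from the parental line. Among the 307 genes in which TG3_6 was high, the WT mean lay nearer to the other clones than to TG3_6 in 269 (87.6%), and among its 260 low genes in 209 (80.4%). For TG3_5 the numbers were 120 of 219 high genes (54.8%) and 154 of 350 low genes (44%), and for TG3_2 they were 45 of 74 (60.8%) and 45 of 131 (34.4%). TG3_6 was the clone farthest from WT in 1580 of the 2782 called genes, TG3_5 in 776 and TG3_2 in 426. In 1276 of them WT lay between the lowest and the highest clone.

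Some genes of bone morphogenetic protein (BMP) signalling differed strongly between TG3_6 and both other clones. By the rule above TG3_6 stood apart and low in ID3, while ID1 and NOG were called in all 3 contrasts. BMP ligands signal through SMAD proteins, which switch on ID1 and ID3 among their best-known targets, and NOG encodes noggin, a secreted inhibitor that binds BMPs outside the cell. ID1 (ENSG00000125968.9, plus strand, chr20:31605283-31606515) was at 49.2, 42.8 and 44.3 CPM in TG3_2, at 26.3, 27.1 and 24.7 CPM in TG3_5 and at 3.83, 4.88 and 4.51 CPM in TG3_6, with WT at 34.0, 35.7 and 33.4 CPM. The clones did not overlap, and TG3_6 was the only one of them far below WT. The log2 fold change was -3.37 (standard error 0.09) between TG3_6 and TG3_2, -2.56 (0.10) between TG3_6 and TG3_5 and -0.80 (0.07) between TG3_5 and TG3_2, with an adjusted p-value of 5.53e-21 over the 3 clones. TG1_1 and TG2_2 had mean levels of 39.8 and 42.7 CPM. ID3 (ENSG00000117318.9, minus strand, chr1:23557926-23559501) was at 41.5, 33.9 and 33.5 CPM in TG3_2, at 25.6, 23.9 and 26.4 CPM in TG3_5 and at 3.28, 3.88 and 3.21 CPM in TG3_6. It followed ID1 in the order of the clones, again with TG3_6 far below WT (30.4, 26.5 and 28.7 CPM), at a log2 fold change of -3.39 (0.11) from TG3_2 and -2.87 (0.11) from TG3_5 (adjusted p = 1.15e-19). NOG (ENSG00000183691.6, plus strand, chr17:56593699-56595611) took the opposite order, at 12, 15.7 and 16.2 CPM in TG3_2, 24.1, 26.6 and 27.6 CPM in TG3_5 and 63.8, 68.5 and 62.7 CPM in TG3_6. No library of one clone reached the next, and WT (21.4, 20.2 and 16.7 CPM) lay between TG3_2 and TG3_5. The log2 fold change of NOG was 2.14 (0.08) between TG3_6 and TG3_2, 1.31 (0.07) between TG3_6 and TG3_5 and 0.83 (0.09) between TG3_5 and TG3_2 (adjusted p = 5.76e-19).

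In the list of TGF-beta and BMP ligands, receptors and responses, 16 of 31 tested genes were called (51.6%, against 20.2% of all genes), and 15 of 28 without the genes of chromosomes 4, 13 and 19. Between TG3_6 and TG3_2, 3 members were higher and 9 lower in TG3_6, beside 5.08% and 3.9% of all genes. Between TG3_6 and TG3_5, 6 were higher and 5 lower in TG3_6, beside 8.18% and 7.55%. SMAD6 and SMAD7, feedback inhibitors of the pathway, were lower in TG3_6 than in TG3_2, by -1.08 and -0.79 on the log2 scale, as was ID2, by -0.95. INHBA, which encodes an activin subunit, was lower in TG3_6 than in both other clones (-0.93 and -0.87). Among the ligands, BMP4 was higher in TG3_6 than in TG3_2 and TG3_5 (0.72 and 0.73), and TGFB2 was lower than in TG3_2 in both other clones (-1.02 in TG3_5 and -1.06 in TG3_6). BMP6, another ligand, marked TG3_5 instead, at 0.412, 0.849 and 0.758 CPM against 3.31, 3.05 and 3.52 CPM in TG3_2 and 2.82, 2.99 and 2.51 CPM in TG3_6. TG3_5 lay below both without overlap, with WT at 0.741, 0.860 and 0.811 CPM.

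The promoters of 2 pairs of genes that differed together are given here, ID1 and ID3, low in TG3_6, and MAGEA12 and CSAG1, nearly silent in TG3_5, since the members of each pair differed in the same direction. Each stretch holds 300 bases, from 250 before to 50 after the transcription start in RefSeq (GRCh38.p14), with the CpG dinucleotides in capitals. ID1 (chr20:31605039-31605338, plus strand) holds 22 CpGs and ID3 (chr1:23559452-23559751, minus strand) holds 27.
ID1: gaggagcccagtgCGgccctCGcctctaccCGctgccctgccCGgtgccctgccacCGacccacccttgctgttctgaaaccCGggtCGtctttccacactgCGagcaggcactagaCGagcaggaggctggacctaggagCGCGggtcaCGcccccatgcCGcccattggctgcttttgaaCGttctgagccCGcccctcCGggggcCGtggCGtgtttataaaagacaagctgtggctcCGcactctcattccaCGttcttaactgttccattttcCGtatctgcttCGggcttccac
ID3: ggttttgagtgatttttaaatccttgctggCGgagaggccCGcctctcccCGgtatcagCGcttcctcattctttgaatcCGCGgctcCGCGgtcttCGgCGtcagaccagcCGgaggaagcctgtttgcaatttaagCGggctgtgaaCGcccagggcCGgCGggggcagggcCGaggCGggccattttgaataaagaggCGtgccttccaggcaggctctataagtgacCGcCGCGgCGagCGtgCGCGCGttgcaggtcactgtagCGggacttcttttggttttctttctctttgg
The other pair, MAGEA12 (chrX:152733507-152733806, plus strand, 9 CpGs) and CSAG1 (chrX:152733672-152733971, minus strand, 16 CpGs), starts head to head. The starts lie 22 bases apart in GENCODE, the annotation of the counts, which places the start of CSAG1 elsewhere than RefSeq does. The printed windows, which follow RefSeq, share 135 bases.
MAGEA12: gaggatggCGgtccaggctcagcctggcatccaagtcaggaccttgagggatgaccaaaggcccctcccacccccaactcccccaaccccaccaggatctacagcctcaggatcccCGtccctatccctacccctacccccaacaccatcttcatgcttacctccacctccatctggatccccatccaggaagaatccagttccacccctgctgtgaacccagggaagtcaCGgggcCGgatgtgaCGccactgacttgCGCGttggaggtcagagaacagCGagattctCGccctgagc
CSAG1: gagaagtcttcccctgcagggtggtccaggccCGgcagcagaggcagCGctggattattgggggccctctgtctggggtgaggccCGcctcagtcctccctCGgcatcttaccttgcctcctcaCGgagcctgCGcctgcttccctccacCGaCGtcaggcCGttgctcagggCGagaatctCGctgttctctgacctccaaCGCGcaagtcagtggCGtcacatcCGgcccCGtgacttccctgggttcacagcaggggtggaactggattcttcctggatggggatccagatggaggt

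MAGEA12 and CSAG1 are cancer-testis genes, which are silent in most adult tissues, active in the germ line and often reactivated in tumours. MAGEA12 (ENSG00000213401.10, plus strand, chrX:152733757-152737669) was at 23.3, 23.7 and 25.7 CPM in TG3_2, at 1.18, 0.849 and 1.16 CPM in TG3_5 and at 26.5, 25.3 and 26.0 CPM in TG3_6. TG3_5 alone was low, while TG3_2, TG3_6 and WT (28.8, 29.7 and 28.2 CPM) lay in a narrow band. Its log2 fold change was -4.51 (standard error 0.13) from TG3_2 to TG3_5 and 4.6 (0.13) from TG3_5 to TG3_6 (adjusted p = 4.31e-21), against 0.10 (0.07) between TG3_6 and TG3_2. CSAG1 (ENSG00000198930.13, minus strand, chrX:152727484-152733735) was at 10.1, 9.96 and 10.2 CPM in TG3_2, at 0.354, 0.265 and 0.354 CPM in TG3_5 and at 9.52, 10.1 and 8.65 CPM in TG3_6. It repeated the pattern of its neighbour, at -4.93 (0.21) from TG3_2 to TG3_5 (adjusted p = 3.31e-17), and 0% of its exon bases overlap another gene. TG1_1 and TG2_2 held 25.6 and 25.6 CPM of MAGEA12 and 10.8 and 10.4 CPM of CSAG1 on average. Of the list of cancer-testis antigens, only 3 of 37 passed the filter on low values, and MAGEA12 was the only one called.

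Over all genes with a promoter in the RefSeq table, 10345 of the 13760 tested, called genes had CpG-poor promoters more often. Fewer than 10 CpGs were counted in 365 of 1938 called genes (18.8%) and in 716 of 8407 genes not called (8.52%), while the medians were 25 and 27. CATCTG or its reverse complement CAGATG, an E-box, occurred in 233 promoters of called genes (12%) and in 728 of genes not called (8.66%), against 14.7% of all 35116 promoters in the table. Low genes were called more often, as given above, and their part in these shares was not tested.

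Further genes in which TG3_5 stood apart and low included IL31RA, a cytokine receptor subunit, at 2.59, 2.49 and 2.42 CPM against 29.0, 22.8 and 25.9 CPM in TG3_2 and 18.6, 19.4 and 19.2 CPM in TG3_6. TG3_5 lay far below the other clones and WT (16, 15 and 17.3 CPM), at a log2 fold change of -3.37 (standard error 0.12) from TG3_2. TMEM233 and PCYT1B, an enzyme of phosphatidylcholine synthesis, fell in the same class, at -3.94 (0.29) and -3.46 (0.24) from TG3_2. Genes high in TG3_5 were led by NECTIN4, a cell adhesion protein, at 4.95, 6.10 and 5.35 CPM against 0.663, 0.180 and 0.241 CPM in TG3_2 and 0.364, 0.448 and 0.326 CPM in TG3_6. All TG3_5 libraries stood well above the others, at a log2 fold change of 3.96 (0.30) from TG3_2. MAPK8IP2, a scaffold of the JNK kinase cascade, was at 86.1, 102 and 89.6 CPM in TG3_5, against 19.7, 18.3 and 19 CPM in TG3_2 and 22.4, 22.7 and 21 CPM in TG3_6 (2.29 from TG3_2, standard error 0.07, adjusted p = 4.41e-22 over the 3 clones). GREB1, known as an oestrogen-responsive gene, was at 16.5, 17 and 15.3 CPM in TG3_5, at 1.93, 2.02 and 2.22 CPM in TG3_2 and at 2.28, 3.19 and 1.91 CPM in TG3_6. WT, at 9.15, 10.8 and 11.5 CPM, was nearer to TG3_5 than to the others. SYT16 and ATP8B1 completed the 5 leading genes, at 3.41 (0.26) and 2.16 (0.21) from TG3_2.

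TG3_6 stood apart with LAMA5, a laminin chain of basement membranes, at 27.7, 29.0 and 31.3 CPM against 6.57, 5.92 and 6.84 CPM in TG3_2 and 5.77, 6.00 and 6.21 CPM in TG3_5. WT, at 4.6, 5.77 and 5.48 CPM, lay at or just below these clones, and the log2 fold change was 2.19 (standard error 0.09) from TG3_2 and 2.29 (0.09) from TG3_5. GFRA1, a receptor subunit for glial cell line-derived neurotrophic factor, was at 16.2, 17.9 and 16.8 CPM in TG3_6, at 1.77, 2.06 and 2.31 CPM in TG3_2 and at 2.53, 3.02 and 3.08 CPM in TG3_5. All TG3_6 libraries lay above WT (3.28, 4.75 and 3.09 CPM), and the TG3_2 and TG3_5 libraries lay below its highest library. RBPMS2, an RNA-binding protein of smooth muscle, differed by 3.52 (0.22) and 3.35 (0.22) from TG3_2 and TG3_5, ENTPD8 by 3.73 (0.27) and 4.63 (0.32), and IL1RAPL1 by 2.53 (0.08) and 2.15 (0.08). On the low side, C3, the central complement protein, was at 9.29, 10.3 and 8.42 CPM in TG3_6 against 61.7, 60.9 and 75.0 CPM in TG3_2 and 70.4, 88.7 and 85.9 CPM in TG3_5. Here TG3_6 was the clone nearest WT, which held 4.07, 4.96 and 2.59 CPM, and C3 lies on chromosome 19. VDR, the vitamin D receptor, was at 4.78, 5.58 and 5.54 CPM in TG3_6, below TG3_2 (18.1, 16.6 and 17.4 CPM), TG3_5 (25.6, 21.2 and 24.7 CPM) and WT (18.8, 18.6 and 18.3 CPM). KCNJ15, a potassium channel, was lower in TG3_6 by -2.08 (0.15) and -1.67 (0.15).

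The genes in which TG3_2 stood apart and high were led by PLXNA4, a plexin receptor for semaphorins, at 7.84, 6.10 and 6.79 CPM against 0.648, 0.743 and 0.455 CPM in TG3_5 and 0.273, 0.498 and 0.512 CPM in TG3_6. TG3_2 lay above every other library, WT included (1.27, 1.67 and 1.88 CPM), at log2 fold changes of -3.48 (standard error 0.25) to TG3_5 and -4 (0.26) to TG3_6. Its relative PLXNA2 was also high in TG3_2, at 10.1, 10.1 and 11 CPM against 2.06, 3.55 and 2.42 CPM in TG3_5 and 3.55, 3.19 and 4 CPM in TG3_6, but there TG3_2 matched the WT range of 10.1, 10.2 and 12 CPM. COL10A1, the hypertrophic cartilage collagen, was lower in TG3_5 and TG3_6 by -1.77 (0.14) and -1.60 (0.14), CD33, a sialic acid-binding receptor, by -2.60 (0.21) and -2.91 (0.21), and NACAD by -2.70 (0.20) and -2.21 (0.18). On the low side, SFMBT2, a Polycomb group protein, was nearly silent in TG3_2, at 0.276, 0.0449 and 0.0963 CPM. TG3_5 held 6.01, 6.42 and 5.96 CPM and TG3_6 held 5.42, 6.18 and 5.82 CPM, both above WT (3.02, 4.05 and 3.85 CPM), at log2 fold changes of 5.48 (0.31) and 5.40 (0.31) from TG3_2. TG1_1 and TG2_2 held low means as well, of 0.834 and 0.308 CPM. SDC2, a cell surface heparan sulfate proteoglycan, was at 2.1, 2.96 and 2.65 CPM in TG3_2, 23.3, 27.7 and 26.4 CPM in TG3_5 and 22.1, 18.9 and 16.9 CPM in TG3_6 (adjusted p = 8.83e-18), and C2orf72, FAM43B and BICDL1 were higher in both other clones by 2.30 to 4.10.

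**Figure D3:**
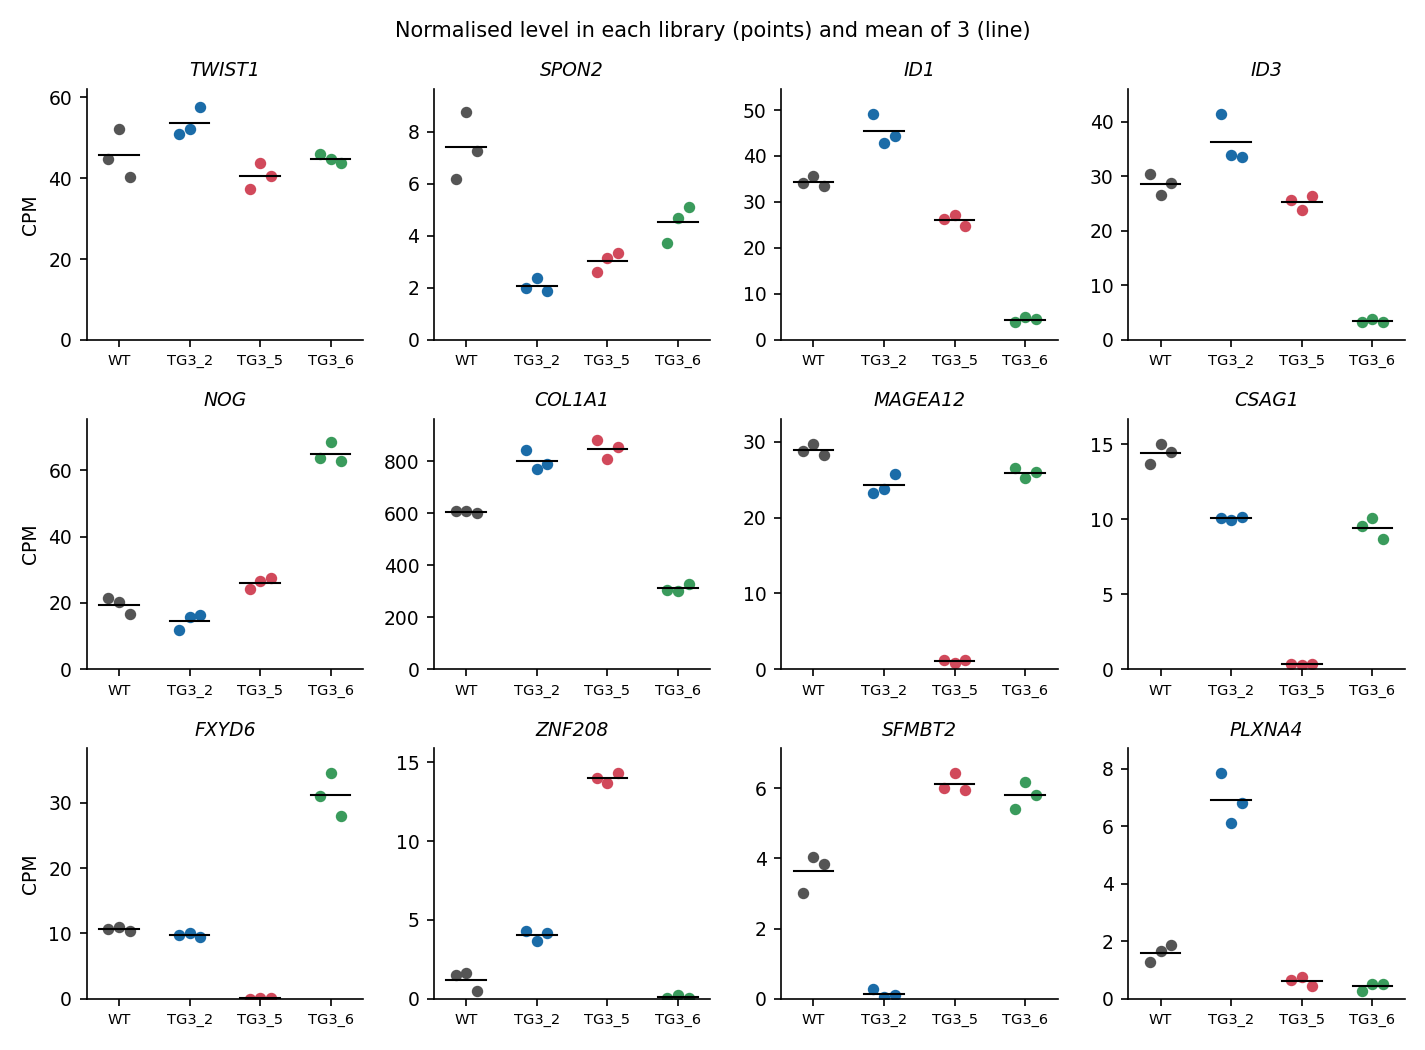
Level in CPM of 12 genes in each library (points), grouped as WT, TG3_2, TG3_5 and TG3_6, with the mean of 3 libraries as a line; each panel has its own linear axis from 0. ID1 and ID3 are low in TG3_6, MAGEA12, CSAG1 and FXYD6 near 0 in TG3_5, ZNF208 near 0 in TG3_6 and SFMBT2 near 0 in TG3_2.

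A few genes were all but absent from a clone while well read in another. By a fixed rule of size, at most 3 counts in every library of a clone and at least 50 counts in every library of another, 14 genes qualified, 10 of them protein-coding and 3 long noncoding RNAs. FXYD6, a regulator of the sodium-potassium pump (minus strand, chr11:117836976-117877486), had 0, 3 and 3 counts in TG3_5, against 177, 223 and 195 in TG3_2 and 681, 692 and 600 in TG3_6. WT held 203, 218 and 205 counts, and TG2_2 was near 0 as well, with a mean of 0.102 CPM. FXYD6 shares 20.4% of its exon bases with FXYD6-FXYD2 and an antisense gene, so some of its reads are uncertain. RIMBP2, a presynaptic scaffold protein, had 0 counts in all 3 TG3_2 libraries, 35, 26 and 24 in TG3_5 and 182, 155 and 180 in TG3_6, at least 56.2-fold higher in TG3_6 when TG3_2 is set at 3 counts per library. WT held 2, 1 and 2 counts, so here the clones with reads were those that departed from the parental line. SLCO1B3, an organic anion transporter, was at 0 in TG3_2 and at 36 to 53 counts in TG3_5 and 61 to 78 in TG3_6, but shares 54.5% of its exon bases with a readthrough gene. NSG1, a neuronal endosomal protein, had 1 to 3 counts in TG3_2, 4 to 11 in TG3_5 and 158 to 204 in TG3_6. C1orf94, FZD10-AS1 and ENSG00000260289 were read above 3 counts per library only in TG3_6 among the 3 clones, RFLNA only in TG3_5, and the lncRNA ENSG00000265702 in TG3_5 and TG3_6. FGFR2, a fibroblast growth factor receptor, and IGFL3 were on in TG3_5 (75 to 92 and 68 to 100 counts), off in TG3_6 and low in TG3_2, as was ENSG00000280002, and LRRN4CL was on in TG3_6 and off in TG3_5. WT was on for 3 of the 14 genes, off for 2 and between the limits for 9.

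ZNF208 (minus strand, chr19:21932958-22010949) and ZNF257 (plus strand, chr19:22052430-22091480), neighbouring KRAB zinc finger genes, were both lowest in TG3_6. ZNF208 was at 4.31, 3.64 and 4.19 CPM in TG3_2, 14, 13.7 and 14.3 CPM in TG3_5 and 0.0455, 0.249 and 0.0465 CPM in TG3_6. ZNF257 had 53, 72 and 68 counts in TG3_2, 95, 119 and 120 in TG3_5 and 0, 2 and 2 in TG3_6. Both stood in the order TG3_6, TG3_2, TG3_5 without overlap. Genes of this family have near-identical copies among which short reads can be split, so the levels are uncertain, and 25.5% of the exon bases of ZNF208 overlap other genes. COL9A3, a cartilage collagen, was at 0.295, 0.0531 and 0.253 CPM in TG3_5, 3.26, 2.65 and 2.60 CPM in TG3_2 and 14.5, 13 and 16.2 CPM in TG3_6, with a log2 fold change of 6.16 (standard error 0.25) between the outer clones. TMEM255A followed the order of RIMBP2, with log2 fold changes of 3.56 (0.37) from TG3_2 to TG3_5 and 2.12 (0.19) from TG3_5 to TG3_6.

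Many differences had a position. On chromosome 4, 232 of 495 tested genes were called (46.9%), and the median log2 fold change was -0.41 between TG3_5 and TG3_2 and 0.42 between TG3_6 and TG3_5, where the median over all genes was 0.00 in both contrasts. Of the chromosome 4 genes called between TG3_5 and TG3_2, 150 were lower in TG3_5 and 5 higher. The shift was larger from 50 Mb onwards, with a median of -0.50 over 345 genes, 194 of them called (56.2%), than before 50 Mb, with -0.19 over 150 genes, 38 of them called (25.3%). Chromosome 19 had 301 of 935 genes called (32.2%) and was lower in TG3_6, with medians of -0.32 against TG3_2 and -0.38 against TG3_5. Chromosome 13, with 81 of 260 genes called (31.2%), was also lower in TG3_6, by -0.34 and -0.26. Medians over 51 neighbouring genes reached 0.3 in size in 9 joined regions, all of them on chromosomes 4, 13 and 19. With windows of 31 genes there were 18 regions, of which 1 each lay on chromosomes 16, 17 and 18.

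**Figure D4:**
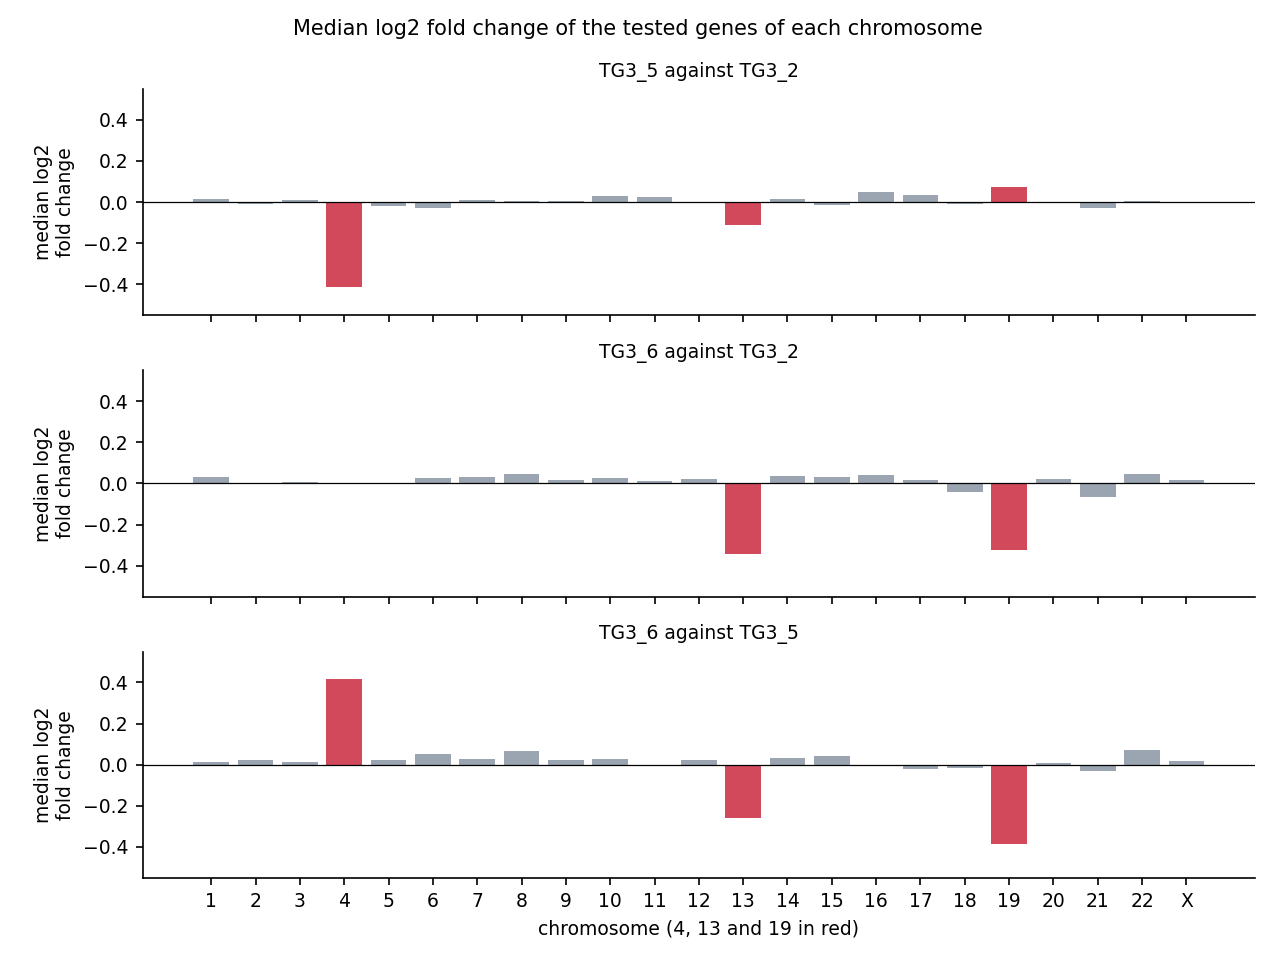
Median log2 fold change of the tested genes of each chromosome in the 3 contrasts between clones, with chromosomes 4, 13 and 19 in red. Chromosome 4 is at -0.41 in TG3_5 against TG3_2 and at 0.42 in TG3_6 against TG3_5, and chromosome 19 at -0.32 and -0.38 in TG3_6 against TG3_2 and TG3_5.

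Set against the WT mean, the chromosome 4 median was -0.38 in TG3_5, with its 3 libraries between -0.40 and -0.37, against 0.03 in TG3_2 and 0.05 in TG3_6. TG2_2, a clone of another label, showed the same value, -0.38, and TG1_1 was at 0.01. The chromosome 13 median was -0.26 in TG3_6 and -0.20 in TG2_2, against 0.06 in TG3_2 and -0.02 in TG3_5. The chromosome 19 median was -0.36 in TG3_6, against -0.08 in TG3_2, 0.02 in TG3_5 and 0.00 in TG2_2. The libraries of a clone lay within a few hundredths of each other, as the plot by library shows. No DNA was measured in these samples, and what shifted whole chromosomes was not tested.

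**Figure D5:**
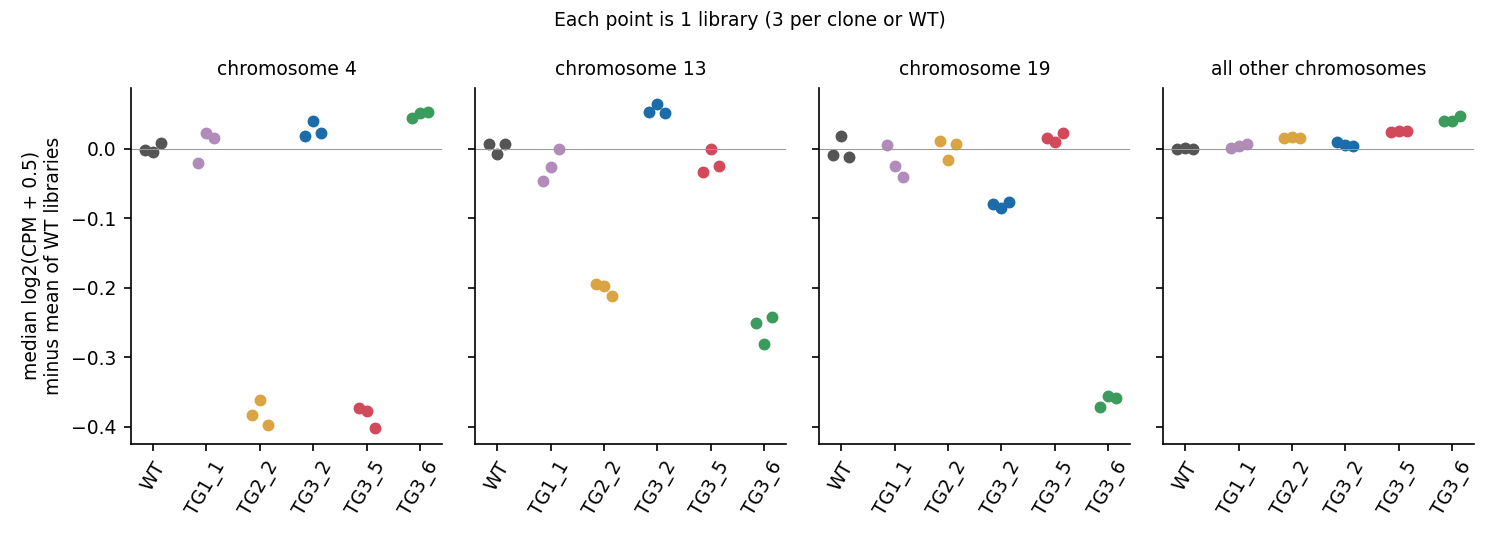
Median over the genes of chromosomes 4, 13 and 19 and of all other chromosomes of log2(CPM + 0.5) minus the mean of the WT libraries, 1 point per library, for WT and the 5 knockout clones. TG3_5 and TG2_2 sit at -0.38 on chromosome 4 and TG3_6 at -0.36 on chromosome 19, while the groups lie near 0 on the other chromosomes.

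Most of the differences lay elsewhere. Without chromosomes 4, 13 and 19 the 3-group test called 2168 of 12070 genes (18%), against 614 of the 1690 genes on them (36.3%). TG3_5 and TG3_2 then differed in 979 genes, 531 higher and 448 lower in TG3_5, and TG3_6 and TG3_5 in 1654, 916 higher and 738 lower in TG3_6. The surplus of low genes in TG3_5 shrank from 350 low and 219 high to 231 low and 196 high. TG3_6 turned from 307 high and 260 low to 288 high and 145 low. ID1, ID3, NOG, MAGEA12, CSAG1, COL1A1 and FXYD6 lie on other chromosomes, and SPON2, SLC7A11 and NAP1L5 lie on chromosome 4.

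Genes of the ATF4 response, which raises amino acid import and synthesis under nutrient or oxidative stress, ran from low in TG3_5 to high in TG3_6. In this list 16 of 29 tested genes were called (55.2%, against 20.2% of all genes), and 13 of 25 without the 3 chromosomes. Between TG3_6 and TG3_5, 14 were higher and none lower in TG3_6, with a list median of 0.56, beside 8.18% higher and 7.55% lower of all genes. Between TG3_5 and TG3_2, 6 were lower and none higher in TG3_5 (list median -0.11), beside 4.63% and 4.24% of all genes. Between TG3_6 and TG3_2, 8 were higher and 1 lower in TG3_6 (list median 0.37), beside 5.08% and 3.9%. Summed over the list, WT held 3148 to 3196 CPM, above TG3_6 at 2659 to 2753 CPM. SLC7A11, the cystine transporter, was at 34.1, 38.3 and 35.6 CPM in TG3_2, 10.3, 10.7 and 7.83 CPM in TG3_5 and 49.6, 52.2 and 51.7 CPM in TG3_6. TG3_5 stood far below the other clones and WT (53.2, 49.2 and 58.9 CPM), at -1.92 (standard error 0.08) from TG3_2 beside a median of -0.41 over chromosome 4, where it lies. SLC7A5, a transporter of large neutral amino acids and 1 of the study's TWIST1 targets, was at 5.58, 3.77 and 3.56 CPM in TG3_2, 1.41, 1.33 and 1.21 CPM in TG3_5 and 7.88, 11.7 and 7.72 CPM in TG3_6, all below WT (17.8, 20.6 and 15.8 CPM). CHAC1, a glutathione-degrading enzyme, was at 13.2, 15.5 and 11.1 CPM in TG3_6 against 3.89 to 5.86 CPM in the libraries of TG3_2 and TG3_5. ASNS, asparagine synthetase, and CTH, an enzyme of cysteine synthesis, were higher in TG3_6 than in TG3_5 by 1.27 and 1.45, although 49.3% of the exon bases of ASNS overlap another gene. PHGDH, the entry enzyme of serine synthesis, differed by 0.97.

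Extracellular matrix genes differed in all directions, and each list had a larger share of calls than the 20.2% of all genes. Of the collagens 12 of 21 were called (57.1%), of the matricellular proteins and proteoglycans 13 of 17 (76.5%), of the integrins and laminins 9 of 22 (40.9%) and of the metalloproteinases and their inhibitors 8 of 15 (53.3%). COL1A1, the main chain of type I collagen, was at 844, 772 and 791 CPM in TG3_2, 882, 808 and 857 CPM in TG3_5 and 306, 301 and 330 CPM in TG3_6. TG3_6 lay below the other clones and WT (611, 610 and 600 CPM), at -1.36 (standard error 0.04) from TG3_2 and -1.44 (0.04) from TG3_5 (adjusted p = 7.11e-21). The basement membrane chains COL4A1 and COL4A2 were lower in TG3_6 as well, by -0.76 and -0.67 from TG3_2, as were LUM by -1.14 and THBS1 by -1.13. COL4A1 and COL4A2 lie on chromosome 13, whose median was -0.34 in that contrast. FN1, which encodes fibronectin, was at 4958, 5371 and 5924 CPM in TG3_6 against 9179, 8741 and 9760 CPM in TG3_2 and 10494, 10700 and 11647 CPM in TG3_5. FBLN1, fibulin 1, ran the other way, at 63.0, 64.7 and 61.8 CPM in TG3_6, 10.7, 10.9 and 11 CPM in TG3_2 and 6.48, 5.46 and 5.15 CPM in TG3_5. It had the smallest adjusted p-value of the genes described here, 2.9e-24, with a log2 fold change of 3.48 (0.08) between TG3_6 and TG3_5.

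TG3_5 held less of several matrix proteases and collagens. MMP1, interstitial collagenase, was at 97.5, 115 and 106 CPM in TG3_5 against 264, 245 and 263 CPM in TG3_2 and 253, 255 and 248 CPM in TG3_6. MMP10, its neighbour on chromosome 11, was at 3.42, 4.24 and 4.39 CPM against 23.8, 21.9 and 24.5 CPM and 25.0, 26.4 and 23.1 CPM. In both genes TG3_5 alone stood apart, by -1.28 (standard error 0.04) and -2.53 (0.11) from TG3_2. COL8A1 and COL22A1 were lower in TG3_5 by -1.52 (0.04) and -2.76 (0.10), and ITGA11, a collagen-binding integrin chain, by -2.05 (0.09). CCN1, a matricellular protein induced by YAP and serum, was highest in TG3_5, at 150, 136 and 143 CPM, against 62.2, 61.5 and 59.5 CPM in TG3_2 and 48.0, 46.2 and 42.6 CPM in TG3_6. All clones lay below WT in CCN1 (216, 225 and 223 CPM). DCN, the proteoglycan decorin, was highest in TG3_2, at 4.14, 3.05 and 3.95 CPM, and at or below 0.657 CPM in every library of the other clones.

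Of the fibroblast and muscle markers 7 of 12 were tested and all 7 were called, with summed levels of 937 to 988 RPM in TG3_2, 1076 to 1138 RPM in TG3_5 and 596 to 604 RPM in TG3_6 and COL1A1 as the largest member. THY1, a surface glycoprotein of fibroblasts, was highest in TG3_6, where this sum was lowest, at 87.4, 86.8 and 83.6 CPM in TG3_2, 184, 189 and 187 CPM in TG3_5 and 228, 221 and 203 CPM in TG3_6. Of the 12 markers 4 stayed under 1 RPM in every library, and COL1A2 reached at most 1.47 RPM. Whether the 7 tested markers belong to a mesenchymal programme of MDST8 was not tested. Among the EMT transcription factors and mesenchymal markers, 5 of 16 were called (31.2%, against 20.2% of all genes). PRRX1, a mesenchymal homeobox factor, was higher in TG3_6, at 40.5, 42.2 and 41.9 CPM against 12.4, 13.7 and 12.3 CPM in TG3_2 and 9.25, 11.9 and 11.4 CPM in TG3_5. FOXC2 was highest in TG3_5, at 9.01, 7.59 and 7.27 CPM, near WT (9.05, 9.81 and 8.11 CPM), and SNAI2 was lower in TG3_6 than in TG3_5 by -0.89. Of the epithelial list 3 of 26 genes were tested, and KRT18, a keratin of simple epithelia, was the member called, at 118, 114 and 121 CPM in TG3_5 against 66.0, 67.5 and 63.4 CPM in TG3_2 and 55.8, 48.5 and 47.5 CPM in TG3_6.

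Of the WNT ligands, targets and feedback genes 14 of 20 were called (70.0%, against 20.2% of all genes), and 13 of 19 without the 3 chromosomes. Between TG3_6 and TG3_2, 5 of them were higher in TG3_6 and 3 lower, beside 5.08% and 3.9% of all genes. The ligands WNT7B, WNT6, WNT9A and WNT3 were higher in TG3_6 than in TG3_2, by 1.81, 1.77, 2.27 and 1.20, and WNT7B was lowest in TG3_5, at 0.471, 0.318 and 0.404 CPM against 6.01, 6.08 and 4.33 CPM in TG3_6. WNT5A, a ligand of far higher level, went the other way, at a log2 fold change of -0.65 and means of 552 CPM in TG3_2 and 352 CPM in TG3_6. NKD2, a feedback inhibitor, was higher in TG3_6 than in TG3_2 by 0.98 (standard error 0.10), while its relative NKD1, with means of 329 CPM in TG3_2 and 217 CPM in TG3_6, was lower by -0.60. MYC, a classical target, was lower by -0.61. Of the MAPK feedback genes 8 of 25 were called (32.0%), and 7 of them were higher and 1 lower in TG3_6 than in TG3_2, among them ETV4, at 66.2, 66.1 and 65.3 CPM against 31.4 to 36.2 CPM in the other clones, and EGR1, at 103 to 111 CPM against 34.2 to 59.9 CPM. Of the Notch genes 5 of 12 were called (41.7%), with HES1, a main target, higher in TG3_6 by 0.79 from TG3_2 and 1.29 from TG3_5.

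Of the imprinted genes, which are read from the maternal or the paternal copy alone, 13 of 19 tested were called (68.4%, against 20.2% of all genes), in no common direction. IGF2 was lowest in TG3_2, at 0.387, 0.359 and 0.771 CPM, and at 1.54 to 2.89 CPM in the other clones, although 44.4% of its exon bases overlap other genes. MAGEL2 was highest in TG3_5, at 4.77, 5.20 and 5.61 CPM against 1.07 to 1.99 CPM elsewhere among the clones. NAP1L5, on chromosome 4, was at 0, 0.531 and 0.152 CPM in TG3_5 and at 1.54 to 2.60 CPM in the other clones and 3.09 to 3.19 CPM in WT. In the clustered protocadherins 14 of 36 were called (38.9%), but their shared exons leave single members uncertain. Among regulators of DNA methylation and chromatin silencing, 3 of 19 were called (15.8%), TET2, TRIM28 and DNMT3A, none by more than 0.90 in size. TET2 lies on chromosome 4 and TRIM28 on chromosome 19, and without chromosomes 4, 13 and 19 the count was 1 of 14. Of 24 HOX genes and of 11 mismatch repair genes with MGMT, edgeR called 0, while 11 and 7 of them had an unadjusted p-value below 0.05 and DESeq2 called 0 of either. Limma on log2(count + 1) called 2 HOX genes.

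Of the 27 genes the study named as TWIST1 targets, 11 were called among the clones (40.7%, against 20.2% of all genes), and 8 of 21 without the 3 chromosomes. The study chose that list on these samples, so the count is not independent evidence. LPAR1, a lysophosphatidic acid receptor, was at 24.3, 26.3 and 27.0 CPM in TG3_6 against 11.4 to 13.1 CPM in the other clones, and TNS1, a focal adhesion protein, at 12.3, 13.8 and 11.1 CPM against 2.83 to 5.04 CPM. In both, TG3_6 lay above TG3_2 and TG3_5 without overlap. In either direction, 52.9% of all genes showed no overlap between TG3_6 and TG3_2, and 61.1% between TG3_6 and TG3_5. WT held 8.26 to 10.97 CPM of TNS1, below every TG3_6 library and above every library of TG3_2 and TG3_5. The study lists TNS1 among the genes downregulated without TWIST1. PODXL2 and SYNE1 were higher in TG3_5 than in TG3_2 by 0.71 and 0.60, and SLC7A1 was lower by -0.74. PPM1N reached -0.60 between TG3_6 and TG3_2 and was called in that contrast but not in the 3-group test.

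Few proliferation genes were called, although most of those tested differed by small amounts. Of the mitosis and replication genes 5 of 36 were called (13.9%, below the 20.2% of all genes), and 1 of 32 off chromosomes 4, 13 and 19. That gene was MKI67, the proliferation antigen Ki-67, at 460, 447 and 456 CPM in TG3_2, 361, 336 and 383 CPM in TG3_5 and 265, 285 and 293 CPM in TG3_6. The median of this list was -0.27 in both TG3_5 and TG3_6 against TG3_2, where that of all genes was 0.00. In the 3-group test 35 of the 36 had an unadjusted p-value below 0.05. Of all genes from 50 CPM up 10.3% were called, and the part of level in the shares of this and other lists was not tested. CCNA2, cyclin A2, on chromosome 4, was at 39.2, 41.7 and 37.3 CPM in TG3_5 against 79.7, 86.7 and 86.8 CPM in TG3_2 and 61.3, 59.3 and 57.1 CPM in TG3_6. Of the p53 targets 6 of 26 were called (23.1%, close to the share of all genes). Between TG3_6 and TG3_5, 5 of them were lower and none higher in TG3_6, beside 7.55% and 8.18% of all genes. Under limma on log2(count + 1) 2 were lower and 1 higher. Among the 5 were MDM2, the negative regulator of p53, by -0.73, and BTG2 by -1.41. GDF15, a stress-induced cytokine on chromosome 19, was lowest in TG3_2, at 25.7, 21 and 25.5 CPM against 68.2, 63.6 and 64.1 CPM in TG3_5 and 49.9, 54.9 and 51.3 CPM in TG3_6. Of the hypoxia and glycolysis genes 8 of 30 were called (26.7%). Without chromosomes 4, 13 and 19 the count was 5 of 27, beside 18% of all genes. The list was led by NDRG1 at 269, 281 and 276 CPM in TG3_6, 140, 130 and 140 CPM in TG3_2 and 81.0, 88.1 and 92.0 CPM in TG3_5. Of the cholesterol and fatty acid synthesis genes 3 of 31 were called (9.68%), of which ELOVL6 and MSMO1 lie on chromosome 4.

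The 13 protein-coding genes of the mitochondrial genome were the list with the highest share of calls among those with more than 10 tested genes, 11 of 13 (84.6%, against 20.2% of all genes), each of them lower in TG3_6 than in TG3_5. MT-ND3, a subunit of respiratory complex I, was at 201, 182 and 254 CPM in TG3_6 against 406, 353 and 327 CPM in TG3_2 and 466, 394 and 436 CPM in TG3_5. Under limma on log2(count + 1) 4 of the 13 were called, all 4 again lower in TG3_6.

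Of the interferon-stimulated genes 12 of 33 were called (36.4%, against 20.2% of all genes), with 7 higher and 2 lower in TG3_6 than in TG3_5, beside 8.18% and 7.55% of all genes. ISG20, an RNA exonuclease, differed most, by 1.88, and BST2, also called tetherin, was lower in both TG3_5 and TG3_6 than in TG3_2, by -1.45 and -1.22. Of the MHC class I presentation genes 4 of 17 were called, 23.5% and close to the share of all genes, among them HLA-B, at 266, 289 and 265 CPM in TG3_6, 208, 203 and 217 CPM in TG3_2 and 128, 136 and 133 CPM in TG3_5. HLA genes share reads with near-identical relatives, and 47.3% of the exon bases of HLA-B overlap other genes. Of the chemokines 5 of 11 were called (45.5%), and 2 of 7 without chromosomes 4, 13 and 19. CXCL8 and CXCL3, which lie on chromosome 4, were lower in TG3_5 than in TG3_2 by -0.88 and -1. Of the ephrins and their receptors 5 of 14 were called (35.7%), and 3 of 12 without these chromosomes. EPHB1 led them, at 35.4, 34.9 and 36.3 CPM in TG3_5 against 7.29 to 11.6 CPM in the other clones. Of the lysophospholipid receptors 4 of 6 were called (66.7%), among them S1PR1, higher in TG3_5 than in TG3_2 by 1.25.

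Called genes had a TWIST1 peak at their promoter in a share close to that of all genes. The MDST8 TWIST1 ChIP-seq list of 1 library held 338877 peaks, and a peak lay within 3000 bp of the 5 prime end of 2067 of the 2782 called genes (74.3%) and of 10527 of all 13760 genes tested (76.5%). With peaks of q at most 0.05, of which there were 1075, the numbers were 21 called genes (0.755%) and 88 of all (0.640%). SH2B3, an adaptor protein, was the most abundant of the 21, at mean levels of 571 CPM in TG3_2, 567 CPM in TG3_5 and 1096 CPM in TG3_6. CHRNA1, SERPINI1, GRAMD1C and ITPKA, also with such a peak, were high in TG3_6 too. Others of the 21 went other ways, with NOLC1 and ITPR2 lowest in TG3_6 and ELK3 and SDC4 lowest in TG3_5. TG3_6 stood apart and high in 5 of the 21 and low in 1. TG3_5 did so in 2 and 1, and TG3_2 in 0 and 1. In 2 all 3 contrasts were called, and the rest showed no such pattern. The genes named here were chosen after their values were seen.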

How the data were processed

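RNA-seq and ChIP-seq of MDST8 were used. The authors deposited raw counts per gene, made from oligo-dT selected, dUTP-stranded libraries with Trim Galore 0.6.6, HISAT2 2.1.0, SAMtools 1.6 and featureCounts 2.0.0 on hg38 with GENCODE 43. No strand setting of the counting is given, so antisense partners cannot be told apart. The deposited ChIP-seq peak list, from Bowtie2 2.4.5 and MACS2 2.2.7.1, gives per the file headers −log10 p-values and q-values, a fold enrichment and a score for each peak. Positions and −log10 p-values and q-values were used, and its build was read as hg38.

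Genes were kept where the geometric mean of RPM + 1, minus 1, was at least 1 over the 9 TG3 libraries. TMM factors came from the 18 MDST8 libraries. edgeR 4.0.16 (R 4.3.3) fitted a quasi-likelihood model with clone as the only term, tested the 3 clones together and in 3 contrasts, and adjusted p-values by Benjamini-Hochberg. The study's methods used limma on log2 counts, which was run as an alternative with limma 3.58.1, as was DESeq2 1.42.0. Fits were tested on simulated counts. Gene positions and exon overlaps came from GENCODE 44 on the same build.

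Named genes were, per clone and direction, the 5 protein-coding genes apart with the largest gap to the nearer clone at 5 CPM or more, the 4 widest with all 3 clones apart, the on or off genes, up to 4 called members of each of 32 gene lists and TWIST1, SPON2 and the study's targets; other members are given as values of their list. The members and lists were chosen with earlier results of these data known. Replicate letters did not pair the libraries (correlations of same-letter deviations -0.12 to 0.05), and replicates differed beyond sampling noise. Library totals of 17252883 to 22217009 put 3 counts at 0.135 to 0.174 RPM; intervals beyond the replicate spread were not computed. The Y chromosome was left out of the positional medians. Alternatives covered scaling, filters, tools, a block, left-out replicates and limits of size.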

Additional observations from a re-analysis of the deposited data

How the results depend on the processing

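The 3-group count of 2782 genes was 2782 with relative log expression factors, 2761 with upper-quartile factors, 2779 with TMM over 9 libraries, 2661 with DESeq2, 2774 with limma voom, 3211 with limma on log2(count + 1), 2213 with limma on log2(RPM + 1), 3370 with filterByExpr and 3728 with no filter. The replicate block gave 2758. Leaving out 1 library in turn gave 2699 to 2786 genes over the 3 clones, 1135 to 1227 between TG3_5 and TG3_2, 1169 to 1260 between TG3_6 and TG3_2, 2109 to 2156 between TG3_6 and TG3_5, and 180 to 200, 535 to 566 and 553 to 603 for TG3_2, TG3_5 and TG3_6 apart. The largest log2 fold change ranged from 1.01 to 1.23 for SPON2 and from -0.45 to -0.34 for TWIST1, and 14 to 17 genes were on or off. TG3_2 stood apart in 132 genes under limma on log2(RPM + 1). On or off genes numbered 45 at 20 counts and 4 at 100 counts, and regions numbered 18 with windows of 31 genes. The share of called genes with a promoter peak was 50.1% within 1000 bp, 84.4% within 5000 bp, 26.9% at p of at most 0.001 and 0.755% at q of at most 0.05. MGMT, not called at -0.04, was between -0.094 and 0.021 with 1 library left out, and above 0 without TG3_2 replicate B or TG3_5 replicate A; the cause was not tested. Of 137 called named genes, 127 kept the call in every alternative and 10 lost it in at least 1. Of the lists, the mitosis genes called rose from 5 to at most 12 and the mitochondrial genes dropped to 4 in an alternative. At this depth a gene of 3 counts or fewer in a clone could not be told from silence.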
